A study of Caenorhabditis elegans with 5 samples.

Results

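Of the 6159 ALR-1 peaks in the combined list, 340 were broad and stood outside peak runs. They were chosen by 2 measured values of that list, their width and the gaps to their neighbours. A broad peak was at least 1000 bp wide, and it did not belong to a run, meaning 3 or more peaks in which each gap between neighbours was at most 1000 bp. A further 53 peaks reached that width inside runs and are left aside. The 340 peaks made up 5.52% of the list, yet they held 571 kb, or 19.5%, of the bases it covered. They were set against 4217 narrow peaks of 200 to 600 bp from the same list, which made up 68.5% of it.

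The nematode Caenorhabditis elegans makes ALR-1 as a DNA-binding regulator of the homeodomain class. In the worm it is known for its part in the identity of touch receptor neurons, amphid sensory neurons and GABA motor neurons. A homeodomain is a small DNA-binding fold that reads a short, AT-rich core sequence. In ChIP-seq a protein held at a single short site usually gives a peak about as wide as the sheared fragments are long, so a peak wider than that is a description of how far reads were enriched and not of how many sites lie beneath it.

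The worms were hermaphrodites of strain OP200 at the L2 larval stage, grown at 20 °C, all of them carrying the mutant allele unc119(ed3) and the transgene wgIs200. The transgene, brought in by bombardment, holds a working unc119 gene and alr-1 fused to TY1, EGFP and FLAG tags, and the submitters describe it as expressed in the pattern of alr-1. ChIP and input libraries share this strain. DNA bound with an antibody against GFP was sequenced from 3 libraries (2 numbered replicate 1 and 1 numbered replicate 2), and input DNA, meaning chromatin not precipitated, from 2 (both numbered replicate 1). No ChIP of worms without the tag was analysed here. Whole animals were used, so neurons that express the factor are mixed with every other tissue.

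The values at hand are 3 PeakSeq peak lists on the WS190 genome build, for the combined data, replicate 1 (1628 peaks) and replicate 2 (3994 peaks). Each peak carries 1 value, the authors' q-value. Strength below means −log10 of that q-value. It depends on read depth, which is unknown here, so strengths rank peaks within a list and do not measure a change between lists. Combined strengths ran higher on chromosome I than elsewhere (values below), and ranks within the combined list pool all chromosomes. Whether the replicates came from separate cultures is not stated in the labels. Ranges in brackets after a percentage are Wilson 95% intervals and allow for counting error alone, and peaks on 1 chromosome are not independent of each other. Coordinates are WS190, counted from 1, and no peak was assigned to a gene because no annotation of WS190 was used.

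Most broad peaks were only moderately wide. The median width was 1344 bp (interquartile range 1133 to 1791 bp), and the widest reached 9808 bp. By width, 212 measured under 1500 bp, 55 from 1500 to under 2000 bp, 49 from 2000 to under 3000 bp and 24 measured 3000 bp or more. The median strength was 7.47 (interquartile range 4.23 to 12.1), against 4.13 (2.83 to 6.48) for the narrow peaks. Of the broad peaks 101, or 29.7%, lay in the strongest 10% of the combined list, against 7.59% of the narrow ones. Width and strength come from the same peak call, so these figures describe the selection and were not tested. Within the broad peaks the widest were not regularly the strongest: Spearman's rho between width and strength was 0.10 over 340 peaks, against 0.30 over the 4217 narrow peaks.

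**Figure D1:**
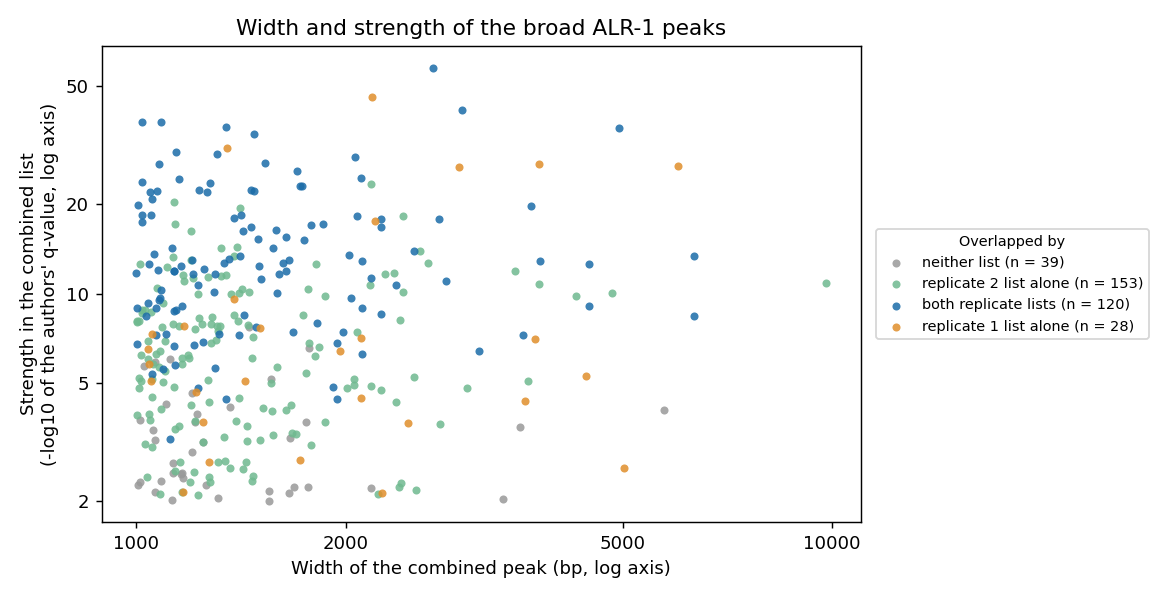
Each point is 1 of the 340 broad peaks. The x axis is its width in bp and the y axis its strength in the combined list (−log10 of the authors' q-value), both on log axes, and the colour shows which replicate lists overlapped it. The 39 peaks in neither replicate list (grey) sit mostly low, with a median strength of 2.94, and the 120 in both (blue) mostly high, with a median of 12.6.

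The width limit cut through a continuous range. Just inside it were II:12677759-12678759 (1001 bp, strength 11.8, in both replicate lists), I:39672-40673 (1002 bp, 8.02) and X:1010560-1011561 (1002 bp, 3.90), the last 2 met by replicate 2 alone. Just outside it were I:12044901-12045899 (999 bp, strength 7.26), V:13556202-13557198 (997 bp, 4.74) and V:3717242-3718237 (996 bp, 8.56). Strengths on the 2 sides overlapped.

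Among the strongest broad peaks, some were covered over most of their width by both replicate lists and some met 1 list alone. The strongest, X:16929321-16931993, was 2673 bp wide with a combined strength of 57.8. Replicate 1 had 1 peak of 2649 bp there with a strength of 59.6, the first rank of its list. Replicate 2 had 2 peaks of 694 and 1290 bp with strengths of 3.54 and 2.64, at ranks 2160 and 3012. A peak of the first rank in 1 list thus stood in the lower part of the other.

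The second, V:1804044-1806229, measured 2186 bp and had a combined strength of 45.9. Replicate 1 covered all of it with its second-ranked peak (2206 bp, strength 56.8), and replicate 2 had no peak there. The same held on X at X:1503856-1505208 (1353 bp, combined strength 30.9), which replicate 1 covered with a peak of strength 39.7 at rank 4. It held again for the strongest broad peak of chromosome III, III:9051198-9054984 (3787 bp, combined strength 27.3), where replicate 1 had 1 peak of 3782 bp with a strength of 32.6 at rank 8. At these 3 positions a peak from the first 8 ranks of replicate 1 had no counterpart in the replicate 2 list.

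Other strong broad peaks were covered by both replicate lists. I:9372732-9373817 (1086 bp, combined strength 37.9) was covered to 86.8% by a replicate 1 peak of strength 4.07 and to 90.0% by a replicate 2 peak of strength 23.4. I:9787581-9788928 (1348 bp, 36.5) was covered to 97.8% and 91.7%, with strengths of 10.1 and 12.5. V:10832813-10833954 (1142 bp, 29.95) was covered to 92.0% and 93.2%, with strengths of 10.2 and 18.2. In these 3 cases each replicate list had a single peak over most of the width.

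Another form was a broad combined peak over several narrower replicate peaks. At II:512017-513036 (1020 bp, combined strength 38.0), replicate 1 had 2 peaks of 328 and 285 bp with strengths of 5.61 and 3.28. Replicate 2 had 2 peaks of 398 and 365 bp at nearly the same places, with strengths of 15.8 and 12.7. No replicate peak there exceeded 398 bp, and only the combined list had a broad one. At I:3822335-3825276 (2942 bp, 41.7), replicate 1 had 1 peak of 1720 bp (8.27) and replicate 2 had peaks of 779 and 1681 bp (4.91 and 12.2). The strongest broad peak of chromosome IV, IV:9089348-9091454 (2107 bp, 24.6), held 1 replicate 1 peak of 1606 bp (13.0) and 2 replicate 2 peaks of 877 and 304 bp (8.55 and 2.04). At I:7491764-7493241 (1478 bp, 34.5), a replicate 1 peak of 1504 bp (18.4) covered 98.5%, whereas the replicate 2 peak of 503 bp (5.47) covered 34.0%.

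The 10 widest broad peaks measured 4472 to 9808 bp and were less alike between lists. The widest of all, X:6736156-6745963, had a strength of 10.9. It had no replicate 1 peak, and replicate 2 covered 69.5% of it with peaks of 5413 and 1405 bp (strengths 4.19 and 7.96). IV:14609776-14614605 (4830 bp, strength 10.1) also had no replicate 1 peak and 2 replicate 2 peaks, of 2959 and 575 bp.

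Replicate 1 held the greater part of 5 others. II:10541918-10546943 (5026 bp, strength 2.58) and II:10547683-10554018 (6336 bp, 8.40) are neighbours 739 bp apart that together span 12101 bp. Replicate 1 covered them to 97.5% and 99.6% with single peaks of 4900 and 6551 bp (strengths 2.64 and 3.76). Replicate 2 had no peak in the first and covered 18.2% of the second. IV:17277203-17281678 (4476 bp, 9.10) and V:14684686-14689157 (4472 bp, 12.6) were both covered to 98% by replicate 1 peaks of 4397 and 4394 bp that ranked 18 and 14 (strengths 17.5 and 20.6), and to 12.7% and 9.28% by replicate 2. I:7079226-7085221 (5996 bp, 26.98) had 2 replicate 1 peaks of 1956 and 2794 bp (5.34 and 3.85) and no replicate 2 peak.

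The remaining 3 of the widest differed again. II:5333740-5338679 (4940 bp, strength 36.2) was the only 1 of the 10 widest that was also among the 10 strongest. Its replicate 1 peak measured 3145 bp (7.92) and its replicate 2 peak 2787 bp with a strength of 33.8, rank 5 of that list. IV:4468060-4474380 (6321 bp, 13.4) held 2 peaks of each list, with strengths of 2.20 and 2.77 in replicate 1 and 3.61 and 2.12 in replicate 2. II:8741846-8747575 (5730 bp, 4.05) met no replicate peak at all.

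Over all 340 broad peaks, 148 (43.5%, interval 38.4 to 48.8%) shared at least 1 bp with a replicate 1 peak, where the background over the whole combined list was 25.7%. A replicate 2 peak met 273 of them (80.3%, 75.7 to 84.2%; background 61.1%). Both lists met 120 (35.3%, 30.4 to 40.5%, background 20.0%) and neither list 39 (11.5%, 8.51 to 15.3%, background 33.2%). Replicate 2 alone met 153 (45.0%, background 41.1%) and replicate 1 alone 28 (8.24%, background 5.67%). For the narrow peaks the shares were 19.9% in both (18.7 to 21.1%) and 30.7% in neither (29.4 to 32.1%). No test was made of these shares, because the reads behind the combined list are not stated and may be those of the replicates, and because a wide peak meets more peaks by its width.

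The second point could be measured in part. When the midpoint of the combined peak had to lie inside a replicate peak, a criterion that 1 bp at the edge of a wide peak does not meet, 22.4% of the broad peaks (18.2 to 27.1%) were in both lists and 19.7% of the narrow ones (18.5 to 20.9%). With a reciprocal overlap of 50% the shares were 18.5% (14.8 to 23.0%) and 19.1% (18.0 to 20.3%). With a replicate peak within 200 bp of the midpoint, they were 26.8% (22.3 to 31.7%) and 19.9% (18.7 to 21.1%). The gap between broad and narrow peaks thus depended on the criterion, and with reciprocal overlap the broad share was the lower one. The share in neither list was 22.6% against 31.1% by midpoint, with intervals of 18.5 to 27.4% and 29.7 to 32.5%, and 27.4% against 31.5% by reciprocal overlap, with intervals of 22.9 to 32.3% and 30.1 to 32.9%. Within 200 bp of the midpoint it was 16.2% against 30.8%.

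The contrast between broad and narrow peaks differed with strength. In the strongest 25% of the combined list, with strengths above 6.73, 56.3% of the 190 broad peaks (49.2 to 63.2%) were in both replicate lists, against 68.6% of the 971 narrow peaks (65.6 to 71.4%). Neither list met 0.526% and 0% of these. In the 25% just below, 17.4% of 69 broad peaks (10.2 to 28.0%) and 14.3% of 1183 narrow peaks (12.4 to 16.4%) were in both lists. In neither were 11.6% (5.99 to 21.2%) and 8.11% (6.69 to 9.81%). In the next 25%, up to a strength of 4.06, 2.70% of 37 broad peaks (0.479 to 13.8%) and 0.277% of 1083 narrow peaks (0.0943 to 0.811%) were in both lists. The shares in neither list were 29.7% (17.5 to 45.8%) and 42.6% (39.7 to 45.5%). In the weakest 25%, at or below 2.75, 0 peaks of either kind were in both lists. There the share in neither list was 43.2% of 44 broad peaks (29.7 to 57.8%) and 75.4% of 980 narrow peaks (72.6 to 78.0%). These shares are descriptions too and were not tested. Strength was not matched within the classes. Its median was 11.7 for broad and 9.66 for narrow peaks in the strongest 25%, and 2.32 and 2.36 in the weakest. The replicate 1 list met 62.6% of the broad and 70.1% of the narrow peaks of the strongest 25%, and replicate 2 met 93.2% and 98.5%.

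**Figure D2:**
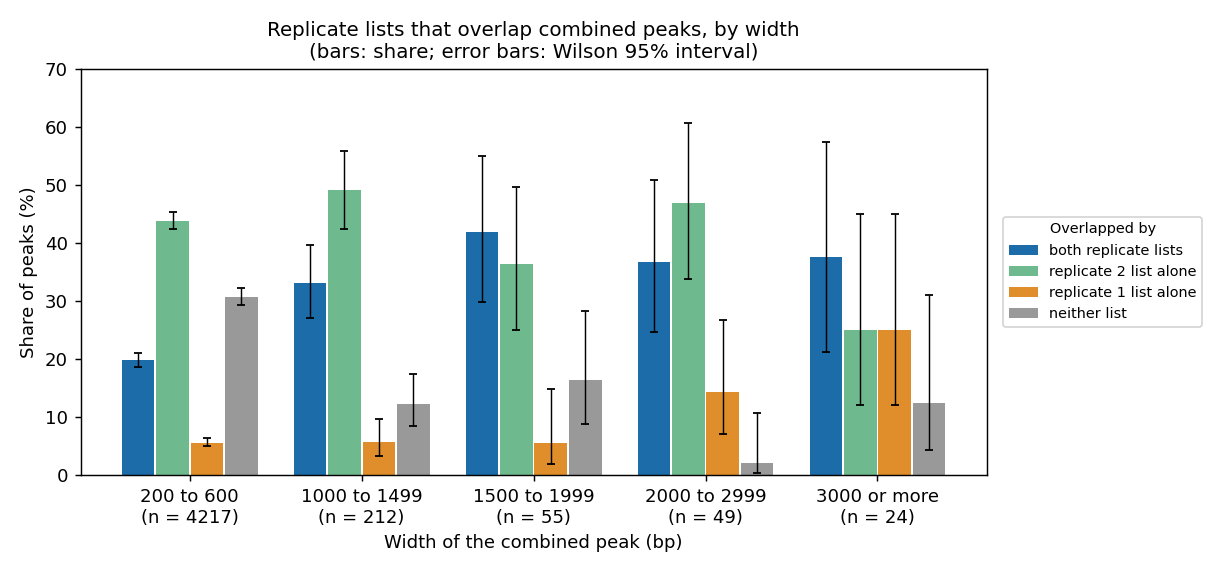
The bars give the share of combined peaks (y axis, %) overlapped by both replicate lists, by 1 list alone or by neither, for narrow peaks and for 4 width classes of broad peaks (x axis, bp, with the number of peaks). Error bars are Wilson 95% intervals. The share in replicate 1 alone is 5.60% for narrow peaks and 5.66%, 5.45%, 14.3% and 25.0% for the broad classes in order of width.

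The share met by replicate 1 alone was larger in the widest class than in the class under 1500 bp, on few peaks. Replicate 1 alone met 12 of the 212 peaks under 1500 bp (5.66%, 3.27 to 9.63%) and 6 of the 24 peaks of 3000 bp or more (25.0%, 12.0 to 44.9%). Replicate 2 alone met 104 of the 212 (49.1%) and likewise 6 of the 24 (25.0%). In the latter class each replicate list met 15 of 24 peaks, although the lists hold 1628 and 3994 peaks. No test was made, because width chose the peaks.

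The 39 broad peaks in neither replicate list were weak in general, with a median strength of 2.94 and a median width of 1214 bp. Of their 5 strongest, 4 lay on chromosome I: I:14844570-14846022 (1453 bp, strength 7.71), I:9382527-9384296 (1770 bp, 6.57), I:8852238-8853358 (1121 bp, 6.03) and I:12815511-12816536 (1026 bp, 5.70). The remaining 1 was IV:11573614-11574677 (1064 bp, 5.87). Chromosome I held 8 of the 39, and its share in neither list, 11.6% of 69 broad peaks, was close to the 11.4% of the other 5 chromosomes. Among narrow peaks, 43.4% of those on chromosome I (40.1 to 46.8%) and 27.5% of those elsewhere (26.1 to 29.1%) were in neither list. Broad peaks on chromosome I had a median combined strength of 13.0, and those of the other chromosomes had medians of 6.28 to 6.82. Among broad peaks met by replicate 2 alone, the medians were 9.91 on I and 5.15 elsewhere. For all narrow peaks they were 4.57 and 4.02. Ranks, strength classes and named peaks of the combined list pool all chromosomes, so chromosome I may weigh more in them. The cause was not tested.

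A broad peak seldom held several replicate peaks. Replicate 1 had 1 peak in 138 of them, 2 in 9, 3 in 1 and none in 192. Replicate 2 had 1 peak in 251, 2 in 22 and none in 67. In all, 29 broad peaks (8.53%) held 2 or more peaks of the same replicate list, against a background of 0.649% over the whole combined list and 0 of the 4217 narrow peaks. Since neighbouring peaks of a list were at least 200 bp apart, a narrow peak has little room for 2, and the contrast follows from the rule. The replicate 2 peaks that shared a broad peak were separated by 206 to 1951 bp (median 328.5 bp over 22 gaps), and those of replicate 1 by 203 to 1716 bp (median 253 bp over 11 gaps). Only 3 broad peaks held 2 or more peaks of each list, and 103 held exactly 1 of each.

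Breadth itself recurred in part. A replicate peak of at least 1000 bp lay under the broad peak in both lists for 31 (9.12%, 6.50 to 12.7%), in replicate 1 alone for 59 (17.4%) and in replicate 2 alone for 102 (30.0%). The other 148 (43.5%) had none, and 109 of these did meet narrower replicate peaks. Of the 4217 narrow peaks, 0 met such a wide replicate peak in both lists, 1 in replicate 1 alone and 5 in replicate 2 alone. Among broad peaks with a replicate 1 peak, 60.8% had a broad one there (52.8 to 68.3%, 148 peaks), and among those with a replicate 2 peak, 48.7% (42.8 to 54.6%, 273 peaks). The 31 that were broad in every list had a median combined strength of 14.3 and a median width of 1855 bp.

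Where a broad peak held exactly 1 peak of each list, the 2 replicate peaks were not alike in size. Over these 103 peaks, Spearman's rho between the replicate 1 and replicate 2 widths was 0.06, and that between the strengths was -0.00048. Over the 838 narrow peaks of the same kind, rho was 0.62 for width and 0.39 for strength. These values are descriptions across peaks of the same libraries, and selection on the combined width limits the range among the broad peaks. The replicate 1 peak was the wider one at 70 of the 103 broad peaks and at 336 of the 838 narrow peaks.

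Replicate 1 peaks covered a median of 90.5% of the width of the 148 broad peaks that they met (interquartile range 63.7 to 97.9%), and replicate 2 peaks 77.8% of the 273 that they met (50.8 to 92.9%). For narrow peaks the medians were 86.7% and 92.8%. Both lists covered at least 80% of the width at 28 broad peaks (8.24%). At 26 others replicate 1 covered at least 80% and replicate 2 under 20%, and at 83 it was the reverse. As shares these were 7.65% and 24.4% of the broad peaks. Among the narrow peaks 10.2% were covered to at least 80% by both lists, 4.74% mainly by replicate 1 and 39.1% mainly by replicate 2, so the narrow peaks were divided between the lists as well.

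The 26 peaks covered mainly by replicate 1 had a median width of 1997.5 bp, and 13 of them measured 2000 bp or more. Replicate 2 had no peak in 20 of them. Of the 26, 11 met a peak from the strongest 10% of the replicate 1 list, against 25 of all 148 broad peaks with a replicate 1 peak. They were spread over the chromosomes, with 2 on I, 4 on II, 6 on III, 3 on IV, 6 on V and 5 on X. The 83 covered mainly by replicate 2 had a median width of 1269 bp, and none met a replicate 1 peak. Of these, 18 met a peak from the strongest 10% of the replicate 2 list, against 56 of all 273 broad peaks with a replicate 2 peak. On X lay 24 of the 83 (28.9%), against 21.2% of all broad peaks and 18.9% of the narrow peaks covered mainly by replicate 2. None of these shares was tested.

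**Figure D3:**
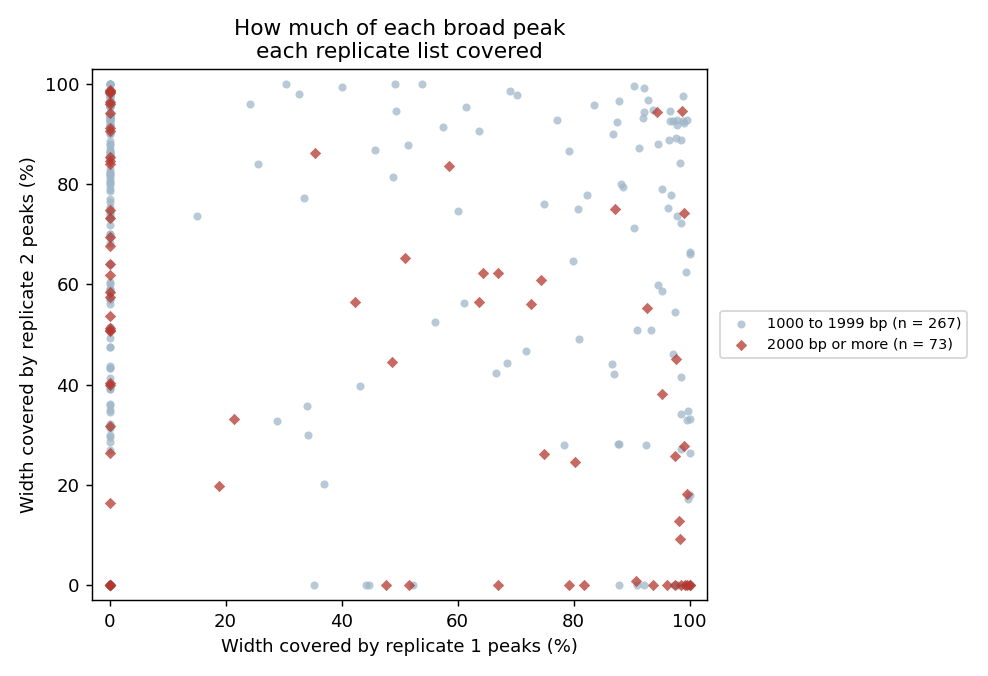
Each point is 1 of the 340 broad peaks, placed by the share of its width covered by replicate 1 peaks (x axis, %) and by replicate 2 peaks (y axis, %). Red diamonds are the peaks of 2000 bp or more and blue circles the narrower ones. Points crowd the left edge (no replicate 1 peak, 192 peaks), the upper right corner (28 peaks covered to at least 80% by both lists) and the lower right corner (26 covered to at least 80% by replicate 1 and under 20% by replicate 2).

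Some of the strongest replicate peaks met broad peaks. Of the 20 strongest of the replicate 1 list (median width 2224.5 bp), 10 overlapped a broad peak and 7 a peak of a run. Of those 10, 5 had no replicate 2 peak, against 7 of all 20. Of the 20 strongest of the replicate 2 list (median 1065 bp), 5 overlapped a broad peak and 7 a peak of a run. Of those 5, 1 had no replicate 1 peak, against 1 of all 20. The share over each whole replicate list was not counted. Width and strength come from the same call, so no test was made.

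The width and gap rule was also applied to each replicate list by itself. It found 111 broad peaks outside runs in replicate 1 (6.82% of the list, median width 1538 bp) and 171 in replicate 2 (4.28%, median 1272 bp). Of these, 92 (82.9%) and 134 (78.4%) overlapped 1 of the 340 combined broad peaks, and 4 and 13 met no combined peak. The same width rule and possibly shared reads favour this overlap, and the shares over all replicate peaks were not counted. A broad peak of the other replicate list met 38 of the 111 and 38 of the 171, which was not tested. Replicate 2 peaks met 68.5% of the 111 (59.3 to 76.4%) and 78.7% of the 1168 narrow replicate 1 peaks (76.2 to 80.9%). Replicate 1 peaks met 33.9% of the 171 (27.2 to 41.3%) and 31.0% of the 3072 narrow replicate 2 peaks (29.4 to 32.6%).

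Position along the chromosome was not itself used by the rule, so it was tested. The gap rule does remove peaks where they crowd, and the narrow peaks were not filtered by it (248 lay in runs). On the autosomes, 155 of 268 broad peaks (57.8%, 51.9 to 63.6%) had their midpoint in the central 40% of the stretch between the outermost peaks, where the background over all combined autosomal peaks was 56.1% and the narrow peaks had 55.6%. The odds ratio against narrow peaks was 1.09 (exact 95% interval 0.845 to 1.42, Fisher's exact test, two-sided, p = 0.523), so no difference was detected. Against narrow peaks outside runs, filtered alike, the odds ratio was 1.15 (0.887 to 1.49, Fisher's exact p = 0.307). The broad share was above the narrow one on I (59.4 and 54.0%), II (68.9 and 56.1%) and IV (60.8 and 56.1%), and below it on III (52.3 and 53.1%) and V (49.2 and 59.2%). On X, 37.5% of 72 broad peaks and 40.1% of the narrow ones were central (odds ratio 0.896, 0.523 to 1.51, Fisher's exact p = 0.707). These tests treat peaks as independent.

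By chromosome, 72 of the 340 broad peaks lay on X (21.2%, background 19.8%), 69 on I, 59 on V, 51 on IV, 45 on II and 44 on III. The share on X was 18.7% for narrow peaks, which gave an odds ratio of 1.17 (exact interval 0.878 to 1.54, Fisher's exact p = 0.280). None of the 6 chromosomes differed between broad and narrow peaks after Benjamini-Hochberg adjustment over the 6, with adjusted p from 0.527 to 0.944 by Fisher's exact test, and 0 of 6 had an unadjusted p below 0.05. Per Mb of that stretch there were 4.59 broad peaks on I, 4.11 on X, 3.21 on III, 2.95 on II, 2.94 on IV and 2.82 on V. Narrow peaks were likewise densest on I (56.5 per Mb) and sparsest on V (31.2 per Mb), with 45.0 per Mb on X.

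The replicate lists did not give the same answer for X. In replicate 2, 51 of the 171 broad peaks lay on X (29.8%, 23.5 to 37.1%), against 18.4% of its narrow peaks, an odds ratio of 1.88 (1.31 to 2.67, Fisher's exact test, adjusted p = 0.00256 over the 6 chromosomes). Chromosome III held fewer in that list (9.36% and 16.8%, odds ratio 0.513, exact adjusted p = 0.0312). In replicate 1, 21 of 111 broad peaks lay on X (18.9%), against 19.9% of narrow peaks, an odds ratio of 0.941 (0.544 to 1.57, Fisher's exact adjusted p = 1). The difference between the 2 lists was not itself tested. An excess of broad peaks on X passed the test in the replicate 2 list, and not in the replicate 1 or combined list. Only 1 ChIP library is numbered replicate 2. The chromosome tests treat peaks as independent, so their p-values do not measure variation between libraries.

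**Figure D4:**
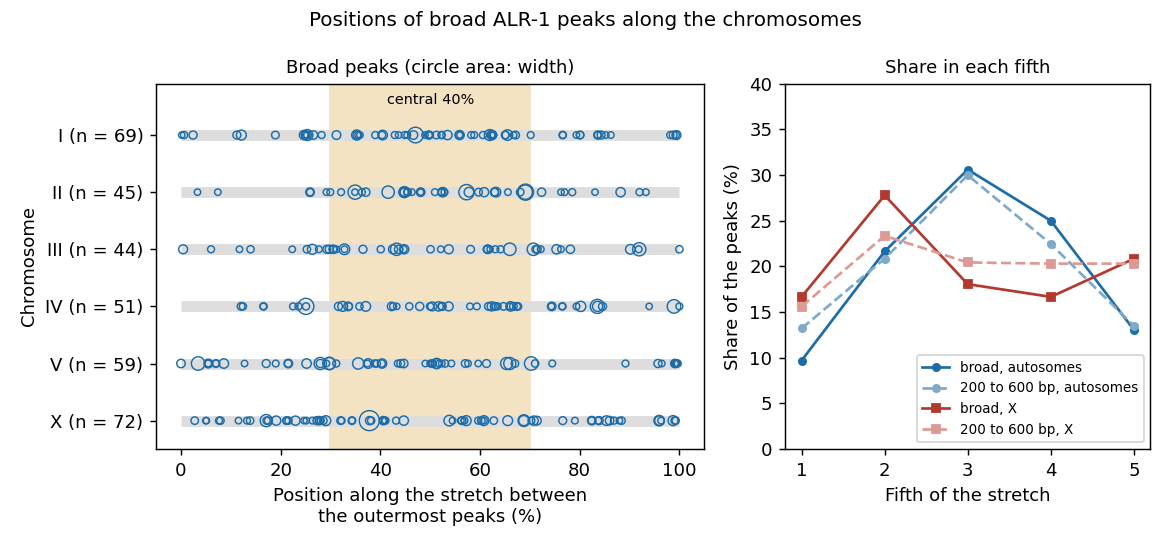
On the left, each circle is a broad peak on its chromosome, placed by its midpoint as a percentage of the stretch between the outermost peaks of any list, with circle area in proportion to width and the central 40% shaded. On the right, lines give the share of broad (solid) and narrow (dashed) peaks in each of 5 equal steps of that stretch, for autosomes (blue) and X (red). On the autosomes the middle step holds 30.6% of broad and 30.0% of narrow peaks, and on X 18.1% and 20.4%.

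No other combined peak lay within 1000 bp of 232 broad peaks (68.2%), and 108 had a single neighbour that close. Of the narrow peaks, which the gap rule did not filter, 77.9% had none within 1000 bp. Of the 108, 30 formed 15 pairs in which both peaks were broad, and the other 78 had a partner narrower than 1000 bp. Picked by rank after the values were seen, the 100 kb window with the most broad peaks was V:20700001-20800000, close to the right end of the peak-bearing stretch, with 5. Of these V:20771755-20772981 (1227 bp, strength 10.7) was in both replicate lists, V:20707096-20708818 (1723 bp, 2.76) in replicate 1 alone, V:20773491-20774645 (1155 bp, 3.58) and V:20776965-20778233 (1269 bp, 5.11) in replicate 2 alone and V:20705608-20706771 (1164 bp, 2.50) in neither.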

How the data were processed

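ChIP-seq of ALR-1 with a GFP tag in L2 worms was read from 3 peak lists. Peaks were called by the authors with PeakSeq on WormBase WS190, per the file headers and the peak rows. The deposited value is a q-value per peak, all below 0.01. Not given in the sources used here are the read alignment, the choice of input as control and the joining of replicates. Width was end minus start plus 1, strength −log10 of the q-value, and overlap at least 1 bp shared. No read counts were used, so depth is unknown. Position was the midpoint along the stretch from the first to the last peak of any list, since chromosome lengths of WS190 were not used. Odds ratios are conditional estimates with exact intervals from Fisher's exact test, two-sided. Named peaks were the 10 widest, the 10 strongest, the strongest of each chromosome, the 5 strongest in neither replicate list and 3 on each side of the width limit. The peaks studied and these lists were chosen with earlier results of these data known. The rule and overlap functions were tested on simulated data. Alternatives covered width, gap, strength, overlap, comparison peaks, central share and each replicate list. Python 3.11.15, numpy 2.4.6, pandas 2.3.3, scipy 1.17.1 and matplotlib 3.10.9 were used. No sequence is printed, because no genome of this build was used here.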

Additional observations from a re-analysis of the deposited data

How the results depend on the processing

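Among 56 alternative values, 41 kept their direction and side of the threshold, or stayed within the interval or spread of the reported value. The odds ratio for the central 40% (1.09) ran from 1.05 to 1.21 in the other settings of the combined list, but fell below 1 with a width minimum of 800 bp (0.985) and with runs joined across 2000 bp (0.947). In no setting was p below 0.05. The odds ratio for X (1.17) passed the test with a width minimum of 800 bp by its unadjusted p (1.32, Fisher's exact p = 0.0119), but no chromosome differed there after adjustment over the 6 (smallest adjusted p = 0.0713). Applied to 1 replicate list at a time, the rule gave 0.941 to 1.88 for X, with the test passed in replicate 2, and 1.10 to 1.46 for the central share. The number of chromosomes that differed, 0, became 2 in replicate 2 and 0 in replicate 1. The cause was not tested. The share of broad peaks in both lists (35.3%) and in neither (11.5%) was 45.9% and 3.47% in the stronger 50% of the combined list, 18.5% and 27.4% with reciprocal overlap, 22.4% and 22.6% by midpoint, and 26.8% and 16.2% with a replicate peak within 200 bp of the midpoint. Without chromosome I, an alternative added after the data were seen, it was 33.9% and 11.4%. With the stronger 50% of each replicate list, which removes peaks by construction, 7 broad peaks in place of 29 held 2 or more peaks of 1 list, and the mean covered width went from 34.4% to 22.8% in replicate 1 and from 56.8% to 38.5% in replicate 2. No paired analysis was possible because the lists hold no value per library. An absent peak is not absent binding, since the depth is unknown.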

Other observations

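Replicate peaks under broad peaks were also ranked within their own list, as a description. The contrast with narrow peaks was not tested. Broad peaks were the stronger ones in the combined list, which may share reads with the replicates. A wide peak can also hold more replicate peaks, of which the strongest was taken. The strongest replicate 1 peak under a broad peak had a median rank of 35.4% from the top of its list (148 peaks), and under a narrow peak 52.4% (1074 peaks). In replicate 2 the medians were 33.4% (273 peaks) and 50.1% (2685 peaks). Among broad peaks in the class of 3000 bp or more, 8 of 24 lay on V, 5 on II, 4 on III, 3 on IV, 3 on X and 1 on I. Of all 340 broad peaks, 59 lay on V and 69 on I. The class under 1500 bp had 35 of 212 on V and 49 on I, and the class from 2000 to under 3000 bp 6 and 10 of 49. Longest of the pairs in which both peaks were broad, after the one on II, was V:6222452-6230095, with peaks of 3806 and 3499 bp (strengths 12.9 and 11.9) separated by 339 bp. These extremes were picked by rank, and no test was made of them.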
